A study of Mus musculus with 6 samples.

Results

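The Brinp family has 3 genes in the mouse, Brinp1, Brinp2 and Brinp3, and the members were found by symbol among the 55335 genes of the deposited table; each passed the filter on low values, so that 3 of 3 stand among the 12792 genes tested. The family was chosen because Brinp2 was about 2-fold higher with AAV-shbrpf1 in each pair of libraries. For that reason the values of the 3 genes between the viruses are given as a description, with no test. RNA was sequenced from 6 samples of interneurons cultured from C57BL/6 mouse brains at embryonic day 14.5, which the labels describe as wild type and also, in another field, as neural progenitor cells. Each of the 6 received an adeno-associated virus (AAV) for 12 hours, 3 of them AAV-shbrpf1, a short hairpin against Brpf1, and the other 3 AAV-scramble, a scrambled hairpin. The study asks what Brpf1, a scaffold of histone acetyltransferase complexes, does in interneurons of the medial ganglionic eminence. No uninfected cells are among the samples, and the sources used here give neither the hairpin sequence nor the time of harvest. They do not say either whether the 3 samples of a group are separate cultures; a p-value then reflects only how far these samples vary, which may be technical variation. Libraries of the same number in the titles are called a pair.

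BRINP proteins are neural proteins that enter the secretory pathway and carry a MACPF domain, the fold shared by perforin and the terminal complement proteins. They were named from their induction by bone morphogenetic protein (BMP) and retinoic acid in cultured neural cells, and forced expression slows the cell cycle. Mice that lack Brinp1 have been described with altered neurogenesis and with more parvalbumin interneurons in the cortex. The astrotactins, which act in the migration of neurons along glial fibres, are the other MACPF proteins made mainly in the brain.

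Several checks of the libraries bear on what follows. Depth, estimated from the steps between low values, ran from 13.1 to 21.1 M fragments. Brpf1, the targeted gene, stood at 3.29, 5.45 and 4.84 FPKM (fragments relative to transcript length and library depth) in AAV-scramble libraries 1, 2 and 3 and at 3.13, 4.58 and 3.78 FPKM with AAV-shbrpf1, which is 4.88%, 15.98% and 21.8% lower in the 3 pairs (limma adjusted p = 1, and 1 with the pair as a block). The groups overlapped, and the knockdown labelled was not resolved at this level of spread. Of 22 markers of GABAergic interneurons 20 were tested, while the 8 glutamatergic markers summed to at most 1.19 FPKM in a library. Genes of radial glia and astrocytes were abundant, at summed levels of 480 to 1149 FPKM. In such bulk samples fewer cells of a type and less RNA per cell cannot be told apart.

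The 3 genes are alike enough in sequence to be recognised as a family and different enough to be told apart by sequence. In GENCODE M21 (GRCm38) the main coding transcripts of Brinp1, Brinp2 and Brinp3 are 3212, 4167 and 4023 nt long with 7 coding exons each, and their coding sequences are 2283, 2352 and 2301 nt. Aligned coding bases were identical at 70.6% between Brinp2 and Brinp3, at 58.5% between Brinp1 and Brinp2 and at 57.8% between Brinp1 and Brinp3. The 120-base stretch of 1 exon that is most alike in all 3 shows how far this goes; capitals mark the 79 positions (65.8%) at which the 3 genes have the same base.
Brinp1 (chr4:68762720-68762839, minus strand, exon 8): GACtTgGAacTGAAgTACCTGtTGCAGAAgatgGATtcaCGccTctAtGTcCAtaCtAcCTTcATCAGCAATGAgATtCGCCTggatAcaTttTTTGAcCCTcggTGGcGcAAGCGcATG
Brinp2 (chr1:158246900-158247019, minus strand, exon 8): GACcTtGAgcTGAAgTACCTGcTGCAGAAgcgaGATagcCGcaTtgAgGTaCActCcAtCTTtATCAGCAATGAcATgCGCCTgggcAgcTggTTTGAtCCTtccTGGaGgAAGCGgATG
Brinp3 (chr1:146901296-146901415, plus strand, exon 8): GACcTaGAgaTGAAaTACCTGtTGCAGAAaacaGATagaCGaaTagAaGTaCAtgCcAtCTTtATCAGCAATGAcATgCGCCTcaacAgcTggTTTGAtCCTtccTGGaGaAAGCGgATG

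In the same exon lies the 120-base stretch without gaps that is least alike, where 33 positions (27.5%) are shared by the 3 genes, again in capitals.
Brinp1 (chr4:68762954-68763073, minus strand): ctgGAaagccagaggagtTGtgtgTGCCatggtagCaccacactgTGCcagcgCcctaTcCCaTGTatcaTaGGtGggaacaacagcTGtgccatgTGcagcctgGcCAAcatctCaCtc
Brinp2 (chr1:158247122-158247241, minus strand): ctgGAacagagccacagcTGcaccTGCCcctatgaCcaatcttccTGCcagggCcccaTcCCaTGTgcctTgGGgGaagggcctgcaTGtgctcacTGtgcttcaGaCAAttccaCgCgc
Brinp3 (chr1:146901074-146901193, plus strand): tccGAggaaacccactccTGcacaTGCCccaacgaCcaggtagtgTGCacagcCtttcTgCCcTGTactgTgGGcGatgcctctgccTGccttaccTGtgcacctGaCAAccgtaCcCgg

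The longest run of bases shared without a mismatch bears on whether reads of one gene could be counted for another. Between Brinp2 and Brinp3 it is 28 nt, at coding positions 1586 to 1613 of Brinp2, counted from the A of the start codon, and its sequence is ccatctttatcagcaatgacatgcgcct. Brinp1 and Brinp2 share at most 19 nt and Brinp1 and Brinp3 at most 16 nt, over all annotated transcripts as well. The sources used here do not give the read length.

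Brinp2 was higher with AAV-shbrpf1 in 3 of 3 pairs, and neither of its relatives was. It measured 3.99, 6.02 and 6.96 FPKM in AAV-scramble libraries 1, 2 and 3. With AAV-shbrpf1 it measured 9.79, 12.1 and 14.3 FPKM. The groups did not overlap: the lowest AAV-shbrpf1 library lay above the highest AAV-scramble library, and in each group library 1 was the lowest and library 3 the highest. The ratio within pairs was 2.45, 2.01 and 2.05, and the gap was 5.79, 6.08 and 7.32 FPKM. Averaged, AAV-scramble gave 5.66 ± 1.52 FPKM and AAV-shbrpf1 12.1 ± 2.25 FPKM (SD, n = 3), for a ratio of 2.13. On the log2(FPKM + 1) scale the difference was 0.98, beside a spread within groups of 0.30 (SD). Brinp2 (ENSMUSG00000004031) spans chr1:158245269-158356326 (minus strand), and no other gene of the table overlaps it.

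These values are what the family was chosen from. Groups that did not overlap and were higher with AAV-shbrpf1 were found for 74 of the 12792 genes tested (0.578%), and lower without overlap for 63 (0.492%). A higher level in 3 of 3 pairs was common, at 915 genes (7.15%), as was a lower one at 1444 (11.3%). A level at least 2-fold higher in each pair was found for 12 genes (0.0938%), Brinp2 among these, and at least 2-fold lower for 2 (0.0156%). Of those 12, 2 were at 1 FPKM or more in every library, Brinp2 among these. Just inside that bound, among genes without a predicted-gene name, were the microRNA gene Mir6953 and Zdhhc24, of the palmitoyltransferase family, each with a smallest pair ratio of 2.07, and Brinp2 with 2.01. Just outside it were Mir6931 with 1.87 and the zinc finger gene Zfp579 with 1.83. By limma 0 of 12792 genes (0%) differed between the viruses at an adjusted p under 0.05, with 23 at an unadjusted p under 0.05. With the pair as a block 0 passed (0%) and 280 had an unadjusted p under 0.05.

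The counting error of Brinp2 could be estimated only approximately, and it does not cover variation between samples. At the length of the main transcript and the estimated depth, the libraries held 237 to 986 Brinp2 fragments, which gives a counting error of 3.18% to 6.49% of a value. The deposited value is for the gene, which has 4 annotated transcripts of 265 to 4906 nt. Which of them held the additional fragments was not analysed here, and a gene's FPKM moves with the transcripts chosen as well as with the number of fragments.

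**Figure D1:**
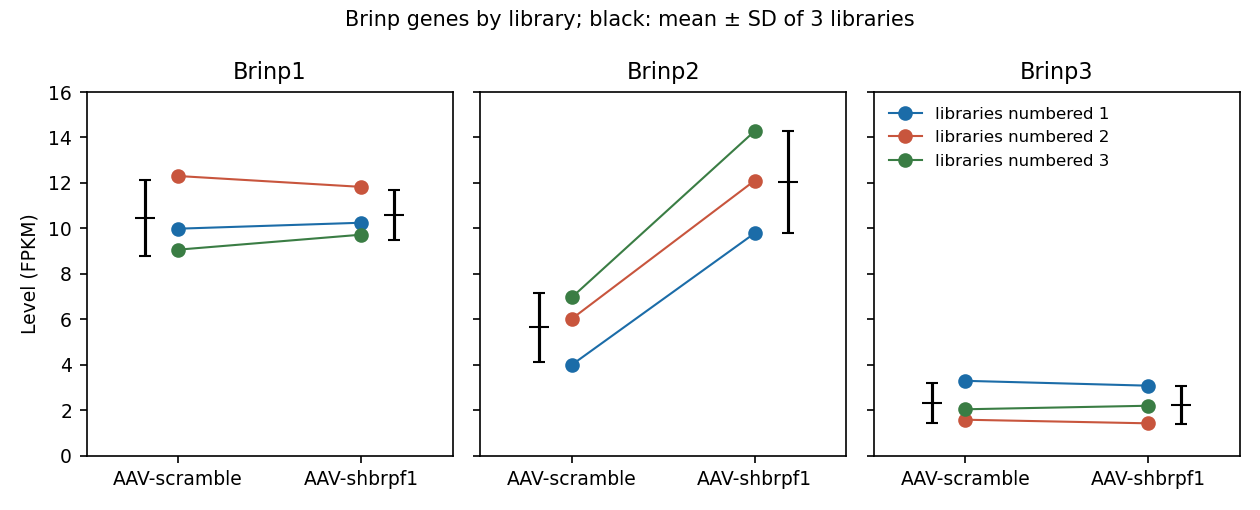
Level of Brinp1, Brinp2 and Brinp3 in FPKM (vertical axis) in the AAV-scramble and AAV-shbrpf1 libraries; lines join libraries of the same number, and black bars give the mean ± SD of 3 libraries. The lines of Brinp2 rise from 3.99, 6.02 and 6.96 to 9.79, 12.1 and 14.3 FPKM, and those of Brinp1 and Brinp3 are nearly level.

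Brinp1, the founding member and the most abundant in the AAV-scramble libraries, stayed between 9.06 and 12.3 FPKM. It measured 9.99, 12.3 and 9.06 FPKM in the AAV-scramble group, against 10.2, 11.8 and 9.72 FPKM under AAV-shbrpf1. The groups overlapped, with library 2 the highest in each. The pair ratios were 1.03, 0.961 and 1.07, and the group means 10.5 ± 1.67 and 10.6 ± 1.09 FPKM (SD, n = 3). Its coefficient of variation over the 6 libraries was 12.0%, against 44.1% for Brinp2 and 33.9% for Brinp3. The 44.1% includes the virus gap that Brinp2 was chosen for. Within the AAV-scramble and AAV-shbrpf1 groups the coefficient was 26.8% and 18.6% for Brinp2, below 38.4% and 37.1% for Brinp3. Brinp1 (ENSMUSG00000028351) spans chr4:68761514-68954397 (minus strand).

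Brinp3 was the lowest of the family per transcript length. It measured 3.29, 1.58 and 2.04 FPKM in the AAV-scramble group, against 3.08, 1.42 and 2.20 FPKM under AAV-shbrpf1. The groups overlapped almost wholly, and the libraries numbered 1 were high and those numbered 2 low with either virus. The pair ratios were 0.935, 0.900 and 1.08, and the group means 2.31 ± 0.886 and 2.23 ± 0.829 FPKM (SD, n = 3). With 75 to 239 estimated fragments its counting error was 6.47% to 11.5%, and the gaps within pairs were of about that size. Brinp3 (ENSMUSG00000035131) spans chr1:146494760-146902472 (plus strand). Within it lies the processed pseudogene Gm15583 on the same strand, listed at 0.897 to 1.69 FPKM, and 3 low-level genes overlap it on the minus strand, so reads may have been shared.

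Per transcript length, the order, shares and sum of the family restate the Brinp2 difference that the family was chosen for. They are given as a description. In each AAV-scramble library Brinp1 was highest, Brinp2 second and Brinp3 lowest, and the ranges of the 3 genes did not overlap. In the AAV-shbrpf1 libraries Brinp1 and Brinp2 overlapped, with a ratio of Brinp2 to Brinp1 of 0.955, 1.02 and 1.47 against 0.400, 0.489 and 0.768 with AAV-scramble. Brinp2 made up 23.1%, 30.2% and 38.5% of the summed FPKM of the family in AAV-scramble libraries 1, 2 and 3 and 42.3%, 47.7% and 54.5% with AAV-shbrpf1. The sum of the family was 17.3, 19.9 and 18.1 FPKM in the AAV-scramble group, against 23.1, 25.4 and 26.2 FPKM under AAV-shbrpf1. Brinp1 and Brinp3 together held 12.8 ± 1.46 and 12.8 ± 0.792 FPKM (SD, n = 3) of it, so the gap between the sums is the gap in Brinp2.

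**Figure D2:**
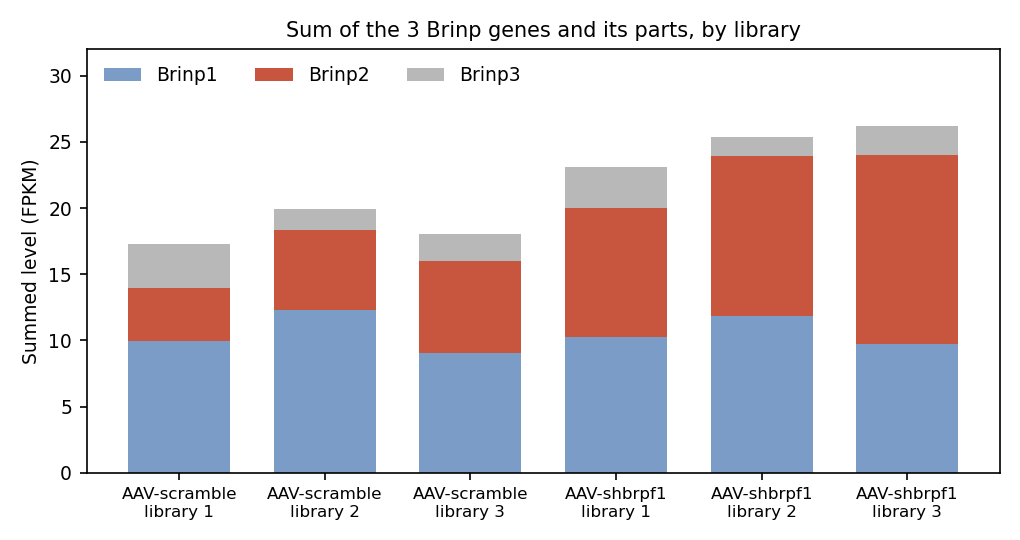
Summed FPKM of the 3 Brinp genes in each library (bar height), divided into Brinp1, Brinp2 and Brinp3. The bars of the AAV-shbrpf1 libraries reach 23.1 to 26.2 FPKM against 17.3 to 19.9 FPKM with AAV-scramble. The Brinp2 segment, for which the family was chosen, is the part that is taller.

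The replicate numbers were compared for Brinp1 and Brinp3. Brinp2 is described without this test, since its residual is the scatter of the virus difference over pairs, which was small by the choice of the gene. Brinp3 differed between the numbers (limma F test that allows for the virus, adjusted p = 0.0118), and Brinp1 missed the threshold (limma adjusted p = 0.0669). Such differences were the rule in these libraries, with 8876 of 12792 genes (69.4%) past the same threshold. The mean of the 2 libraries of a number was 6.89, 9.06 and 10.6 FPKM for Brinp2 in numbers 1, 2 and 3. It was 3.19, 1.502 and 2.12 FPKM for Brinp3 and 10.1, 12.1 and 9.39 FPKM for Brinp1. The genes thus followed different orders: number 1 was lowest for Brinp2 and highest for Brinp3, and number 2 highest for Brinp1. Without AAV-scramble library 1 the limma adjusted p of Brinp3 was 0.113, with 4786 of all genes (37.4%) past the threshold, and without AAV-shbrpf1 library 1 it was 0.0906, with 5342 (41.8%). Brinp3 also missed the threshold after quantile normalization (0.0853), and Brinp1 passed after it (0.0171) and after median-of-ratios scaling (0.00817).

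Markers of other cells and the share of ribosomal RNA loci moved with the same numbers. The 8 oligodendrocyte lineage markers summed to 136, 245 and 320 FPKM in AAV-scramble libraries 1, 2 and 3. With AAV-shbrpf1 they summed to 154, 233 and 299 FPKM, which is the order of Brinp2 in both groups. The 8 endothelial and mural markers summed to 28.0 and 25.7 FPKM in the libraries numbered 1 and to 1.70 to 2.84 FPKM in the other 4. In the libraries numbered 1 the smooth muscle genes Tagln (13.5 and 12.5 FPKM) and Acta2 (11.5 and 11.6 FPKM) held most of it. The endothelial genes Pecam1, Cldn5, Cdh5 and Kdr stayed at or below 0.452 FPKM in every library. The 12 radial glia and astrocyte markers summed to 513 and 480 FPKM in the libraries numbered 2 and to 1101 to 1149 FPKM elsewhere. Fabp7 was the largest part of each sum, at 187 and 169 FPKM in number 2 and 570 to 758 FPKM elsewhere. The markers did not move as a group. Aldh1l1 was highest in number 2, at 60.1 and 58.4 FPKM against 23.2 to 50.9 FPKM elsewhere, and Hes5 and Aldoc were lowest in number 1. By FPKM multiplied by the longest transcript, ribosomal RNA loci held 7.73% and 11.9% of the libraries numbered 2, against 2.18% to 3.83% elsewhere. The part of these in the spread of the Brinp genes was not tested. Between the viruses the marker sums overlapped, with 513 to 1149 FPKM for radial glia and astrocytes with AAV-scramble and 480 to 1145 FPKM with AAV-shbrpf1, and 971 to 1121 and 1031 to 1063 FPKM for the 10 pan-neuronal markers. The 8 microglia markers summed to 1.17 to 2.76 FPKM with AAV-scramble and 1.05 to 1.47 FPKM with AAV-shbrpf1. The largest part of each sum was Cd68, a lysosomal gene at 0.790 to 2.59 FPKM. Cx3cr1 and Itgam were at 0 in every library.

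The members did not follow one another across the 6 libraries. Pearson's r of log2(FPKM + 1) was 0.03 between Brinp1 and Brinp2, -0.58 between Brinp1 and Brinp3 and -0.36 between Brinp2 and Brinp3, and -0.10, -0.58 and -0.70 after each group's mean was removed. These are descriptions over 6 libraries that share pairs. The genes most like each member were taken from 11317 tested genes without predicted-gene names. For Brinp1 they were Pik3cd, a catalytic subunit of phosphoinositide 3-kinase (r = 0.997), the heparan sulfate sulfotransferase gene Hs6st1 (0.995), Dffa, an inhibitor of the apoptotic DNase (0.994), the receptor tyrosine kinase gene Alk (0.993) and Cntnap1, of the axonal paranode (0.991). For Brinp3 they were Nol7, of the nucleolus, Mbtps2, a protease that activates membrane-bound transcription factors, the RNA-binding protein gene Hnrnpdl, Rfesd and Mfsd6, all at 0.999 or more. These genes shared the pattern of the replicate numbers; the levels of Hnrnpdl were 47.8, 15.96 and 23.0 FPKM in the AAV-scramble group, against 43.2, 13.2 and 25.3 FPKM under AAV-shbrpf1.

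Few genes had the pattern of Brinp2. A Pearson's r above 0.9 was reached by 8 of the 11317 genes for Brinp2, by 339 for Brinp1 and by 2865 for Brinp3. Brinp2 was chosen for a virus difference in each pair that few genes had, so its small count follows from that choice. The most alike was Ntmt1, which encodes an N-terminal methyltransferase (r = 0.969). It measured 2.12, 4.31 and 5.53 FPKM in the AAV-scramble group, against 5.77, 8.22 and 9.38 FPKM under AAV-shbrpf1, higher in 3 of 3 pairs, with groups that did not overlap. It was picked for its likeness to Brinp2, so this adds no independent support. The others were Map6d1, related to a microtubule-stabilizing protein (0.967), the RNA editing deaminase gene Adarb1 (0.919), Shkbp1 (0.913) and Glod5 (0.912). Adarb1 was at 7.61, 8.39 and 7.92 against 8.70, 10.6 and 10.8 FPKM.

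**Figure D3:**
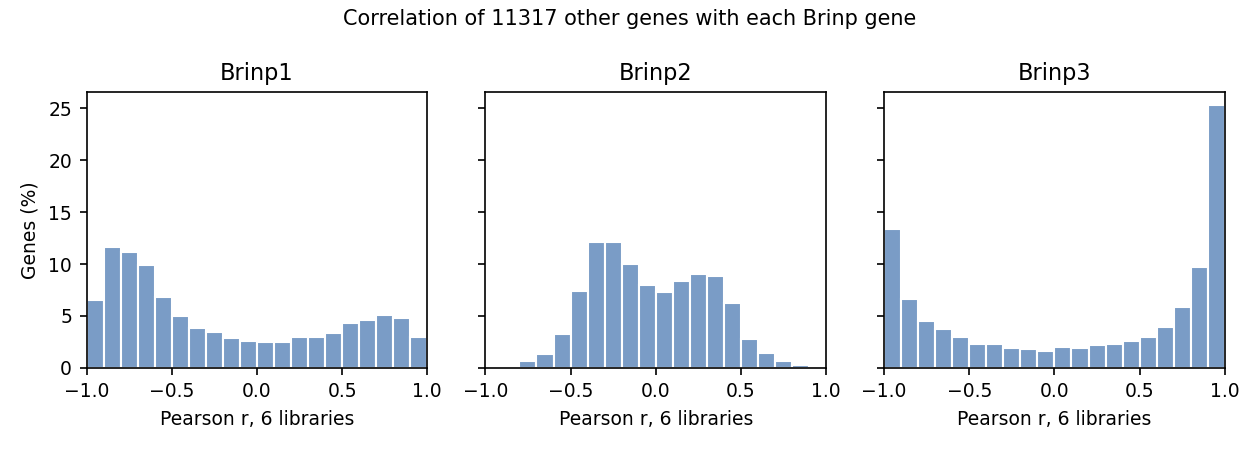
Share of 11317 other genes (vertical axis, percent) by their Pearson correlation of log2(FPKM + 1) with Brinp1, Brinp2 or Brinp3 over 6 libraries (horizontal axis). For Brinp3 25.3% of genes lie in the bin from 0.9 to 1, against 3.00% for Brinp1 and 0.0707% for Brinp2, which was chosen for a pattern that few genes had.

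Neither astrotactin gene was higher with AAV-shbrpf1 in 3 of 3 pairs, where only 7.15% of all genes tested were. Astn1, which is needed for the migration of neurons along glia, begins next to Brinp2 on chromosome 1 and is read away from it, with 5946 bases between the annotated genes (Astn1 spans 158362273 to 158691781 on the plus strand). It measured 43.0, 45.5 and 52.8 FPKM in the AAV-scramble group, against 44.4, 41.0 and 55.2 FPKM under AAV-shbrpf1. The groups overlapped, the pair ratios were 1.03, 0.902 and 1.05, and the log2 difference was -0.01 ± 0.23 (SE, limma adjusted p = 1). Astn2, which regulates the surface level of its relative, is the nearest measured gene on 1 side of Brinp1, 2357 kb away. Its levels were 6.68, 13.1 and 10.5 against 6.55, 12.1 and 9.59 FPKM (log2 difference -0.08 ± 0.32, limma adjusted p = 1). Astn2 differed between the replicate numbers (limma adjusted p = 0.0036), as did 69.4% of all genes, and Astn1 missed that threshold (0.0567). The 7 MACPF genes of the immune system listed, among them the complement genes and perforin, stayed under 1 FPKM, with C6, C9 and Prf1 at 0 in every library and Mpeg1 highest at 0.489 FPKM.

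The other neighbours of Brinp2 were not higher in 3 of 3 pairs either, where only 7.15% of all genes tested were. On the far side of Astn1 the ubiquitin ligase gene Rfwd2 lay 876 kb from Brinp2 and had pair ratios of 0.840, 0.879 and 1.01. Before Brinp2 the RasGAP gene Rasal2, at 833 kb, had ratios of 1.04, 0.874 and 1.29, and the Ral exchange factor gene Ralgps2 had 0.803, 0.944 and 1.19. Of the 12 nearest measured genes around the 3 members, 0 passed the threshold between the viruses (limma adjusted p = 1 for each, and 1 with the pair as a block). Over all genes tested 0 of 12792 passed as well. The widest ratio among the neighbours was in a pseudogene near Brinp3, Rbm3-ps, with 0.474 in pair 2.

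**Figure D4:**
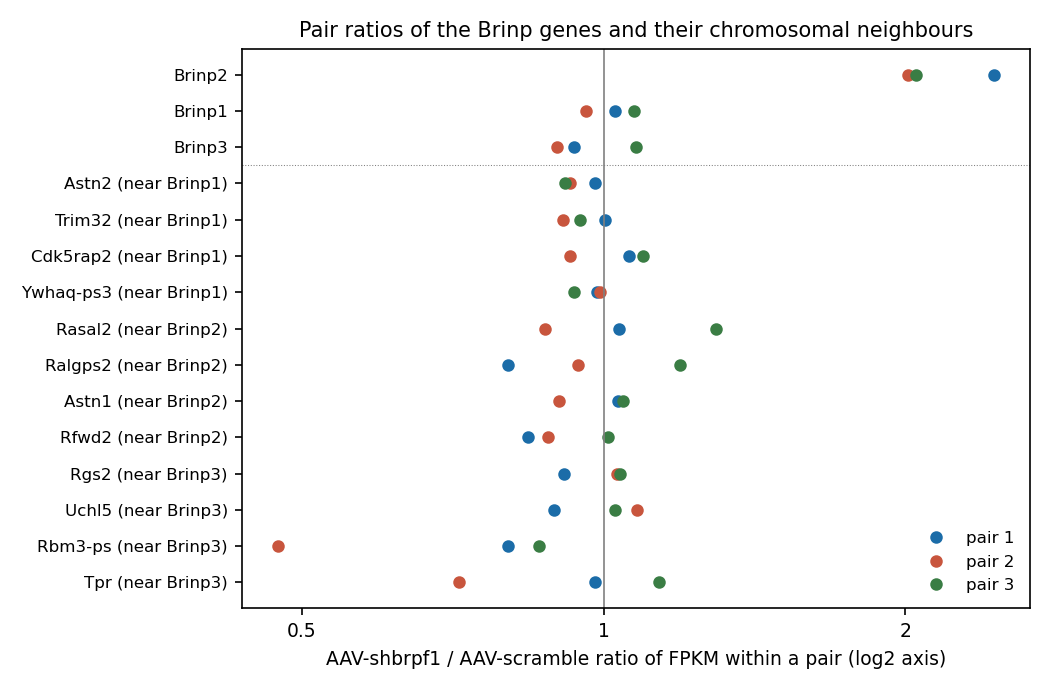
Ratio of AAV-shbrpf1 to AAV-scramble FPKM in each of 3 pairs (horizontal log2 axis) for the Brinp genes and the 2 nearest measured genes on each side of them. The 3 points of Brinp2, which was chosen for this ratio, lie between 2.01 and 2.45. Those of Astn1, which begins 5946 bases away, lie between 0.902 and 1.05.

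The retinoic acid pathway, for which the family is named in part, held no call between the viruses, as was true of all 12792 genes tested. Retinoic acid is made from retinol by dehydrogenases, is carried by binding proteins, acts through nuclear receptors and is broken down by Cyp26 enzymes. Of the 32 genes listed 19 were tested, and 0 were higher and 0 lower at a limma adjusted p under 0.05. At an unadjusted limma p under 0.05 there were 0 too. None had groups that did not overlap, where 0.578% of all genes were higher and 0.492% lower without overlap. The median log2 difference of the 19 was -0.04, beside -0.02 over all genes tested. Of the genes that supply the ligand, the 3 retinaldehyde dehydrogenases Aldh1a1, Aldh1a2 and Aldh1a3 stayed at or below 0.429 FPKM in every library. The breakdown enzymes were low too, with Cyp26b1 highest at 0.748 FPKM. The receptors were measured: Rara, a retinoic acid receptor, stood at 3.54 ± 1.48 FPKM with AAV-scramble and 3.23 ± 1.26 with AAV-shbrpf1, and Rarb, itself a target of retinoic acid, at 2.95 ± 1.19 and 3.17 ± 1.17 FPKM (SD, n = 3). The most abundant member was Fabp5, a fatty acid binding protein that can also carry retinoic acid, at 48.6 ± 11.7 and 48.4 ± 6.77 FPKM. Between the replicate numbers 15 of the 19 differed (78.9%, where 69.4% of all genes did). Without AAV-scramble library 1 this count was 7 (36.8%, where 37.4% of all genes passed), and without AAV-shbrpf1 library 1 it was 8 (42.1%, where 41.8% did).

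The BMP pathway was likewise without a call, as were all 12792 genes tested. Its ligands bind receptor kinases that phosphorylate Smad1, Smad5 and Smad9, while secreted antagonists such as noggin hold the ligands back. Of the 43 genes listed 29 were tested, and 0 passed in either direction (0 at an unadjusted limma p under 0.05, and 1 with the pair as a block), with a median log2 difference of -0.06 and a range from -0.41 to 0.24. The extremes were noggin (Nog), at 1.46, 2.44 and 2.70 FPKM in the AAV-scramble group, against 0.972, 0.780 and 2.78 FPKM under AAV-shbrpf1, and the transducer Smad5 at 8.84, 5.27 and 15.1 against 11.5, 6.08 and 17.4 FPKM; neither is a call. Of the 10 genes listed as ligands 3 were tested; the highest was Bmp1, an astacin protease that bears the name without being a ligand of the family, at 4.47 ± 1.63 and 4.61 ± 1.27 FPKM, followed by Bmp7 and Bmp4, which stayed at or below 2.41 and 2.20 FPKM. The receptors Bmpr1a and Bmpr2 stood at 8.80 ± 4.40 and 8.46 ± 2.87 FPKM in the AAV-scramble group, against 8.55 ± 5.27 and 8.10 ± 4.16 FPKM under AAV-shbrpf1. The most abundant members were Id2, an inhibitor of bHLH factors that BMP signalling induces in many cells, at 23.1 ± 11.2 and 21.4 ± 6.26 FPKM, and the coreceptor gene Rgmb at 23.3 ± 2.39 and 22.2 ± 1.06 FPKM. Between the replicate numbers 18 of the 29 differed (62.1%, where 69.4% of all genes did).

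**Figure D5:**
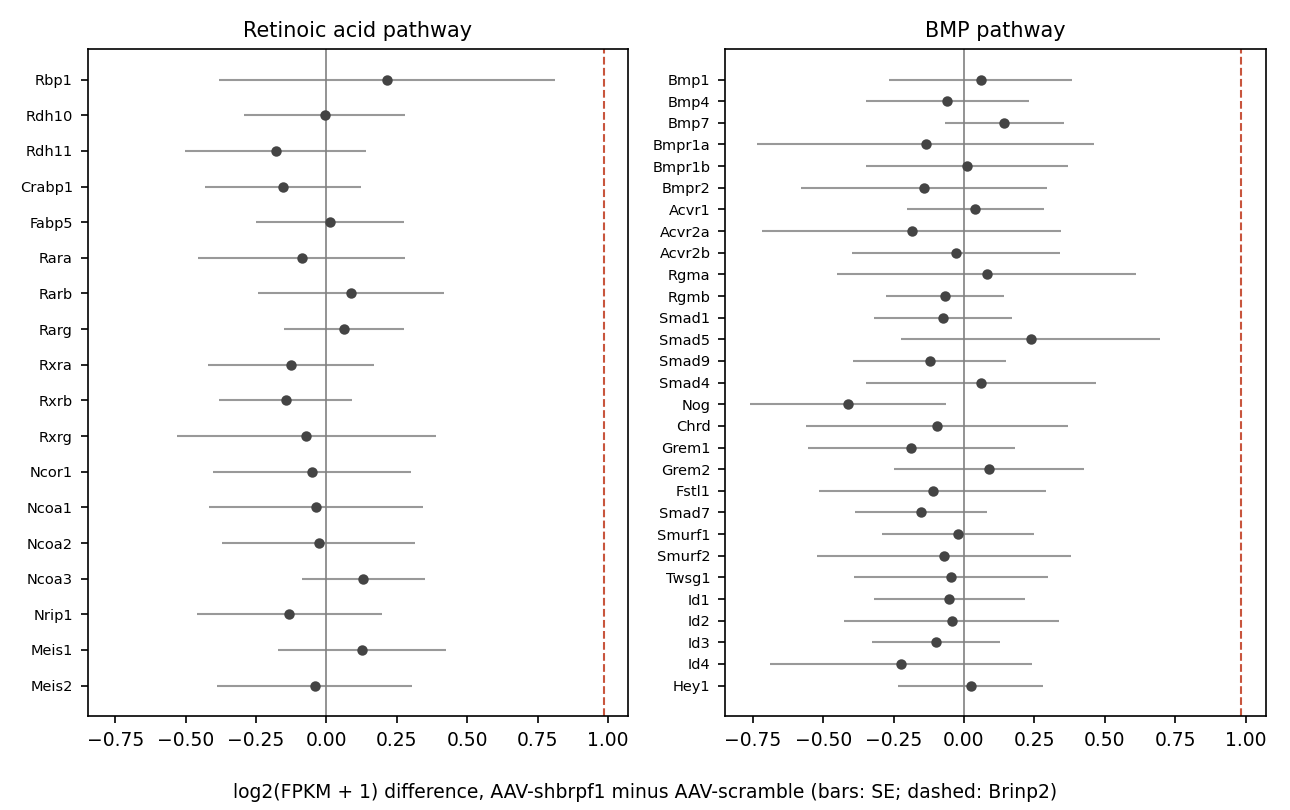
Difference of log2(FPKM + 1), AAV-shbrpf1 minus AAV-scramble (horizontal axis, points with SE from limma), for 18 of the 19 tested retinoic acid pathway genes and the 29 tested BMP pathway genes. The points lie between -0.41 and 0.24, and the dashed line marks Brinp2 at 0.98.

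Genes of the cell cycle, which BRINP proteins slow when overexpressed, and of the interneurons showed no call between the viruses, where 0 of 12792 genes did. Of 30 genes of G1 to S control and the cell cycle 28 were tested and 0 passed (limma; 0 at an unadjusted p under 0.05), with a median log2 difference of -0.03. The cyclin gene Ccnd2 and the kinase gene Cdk4, whose product partners D-type cyclins, were the most abundant, at 37.0 ± 25.4 and 30.01 ± 6.88 FPKM in the AAV-scramble group, against 35.7 ± 22.5 and 29.1 ± 2.76 FPKM under AAV-shbrpf1 (SD, n = 3). Of the 20 interneuron markers tested 0 passed (0 at an unadjusted p under 0.05), with a median of -0.08. The most abundant was somatostatin (Sst), a peptide of 1 interneuron class, at 403 ± 201 and 349 ± 103 FPKM. Parvalbumin (Pvalb) was at or below 0.586 FPKM in every library.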

How the data were processed

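RNA of 6 samples, 3 with each virus, was sequenced as paired ends, per the labels' protocols. The submitters' processing notes name FastQC, StringTie, DESeq2 and mm9, with no roles. The authors deposited 1 table of FPKM per gene and library; its header does not name the unit, which was read from the values and from StringTie among the tools. FPKM keeps no counts, so depth was estimated from the steps between values of 11673 single-exon, single-transcript genes over 400 nt. Only 46.4% to 50.6% of low values fell on whole steps (tolerance 0.03 of a fragment), so no count test was run and fragment numbers are approximate and cover counting error only. Of 55335 gene IDs 55154 were in GENCODE M21, and 54899 had its GRCm38 start and end, so coordinates and sequences are GRCm38 although the notes name mm9.

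Values were taken as log2(FPKM + 1), a scale that understates changes of low genes. Genes whose mean reached 1 FPKM with either virus were fitted with limma 3.58.1 (trend, two-sided, R 4.3.3), with Benjamini-Hochberg adjustment over all 12792 and a threshold of 0.05. The virus contrast had no block; replicate numbers were compared by an F test that allows for the virus, whose residual for Brinp2 draws on the pair differences it was chosen for. Deviations from the group means of same-numbered libraries correlated at 0.87, 0.83 and 0.57, and of others at 0.002 or less, so the numbers were taken to pair the samples; the labels leave the meaning of a number unstated. Scripts were tested on simulated data. Coding sequences were aligned with MAFFT 7.526.

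The members and lists were chosen with earlier results of these data known. Named were the members, Brpf1, the astrotactins, the 2 most abundant genes of a pathway list where none passed or had groups apart, the 2 nearest measured genes on each side of a member and the 5 genes with the highest correlation to it. Some genes that this rule names are not reported here. Other genes named were chosen after their values were seen. Alternatives were other pseudocounts, filters and scalings, the replicate block and leaving out each library.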

Additional observations from a re-analysis of the deposited data

How the results depend on the processing

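The log2 difference of Brinp2 stayed between 0.79 and 1.13 over the alternatives run. This is no test, since the gene was chosen for being about 2-fold higher in each pair. The differences of Brinp1 (-0.06 to 0.14) and Brinp3 (-0.21 to 0.17) changed sign when single libraries were left out and stayed within their spread. Between the viruses 0 genes passed in limma with the replicate block, as without it, and in each list; with the block and pairs left out the count ranged from 0 to 3, with 3 without replicate 2 (Phf24 higher, Sar1a and Dnal1 lower) and 1 without replicate 3 (Cx3cl1 higher), named after their values were seen. The block changed no other call. Between replicate numbers the count of 8876 fell to 5493 with a minimum of 5 FPKM, where 7213 genes were tested and Brinp3 was not, and ranged from 4786 (without AAV-scramble library 1; 5342 without AAV-shbrpf1 library 1) to 8655 when 1 library was left out. The limma adjusted p between numbers then ranged from 0.0987 to 0.309 for Brinp1 and 0.0180 to 0.113 for Brinp3; the 0.0109 to 0.133 of Brinp2 is no test, since the choice of the gene shaped its residual. Median-of-ratios scaling gave 0.00817 for Brinp1, and quantile normalization gave 0.0171 for Brinp1 and 0.0853 for Brinp3; the cause was not tested. Depth limits Brinp3 most, with 75 estimated fragments in its thinnest library.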
